A study of Mus musculus with 12 samples.

Results

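The effect of miR-150 overexpression in hearts that had received no isoproterenol (ISO) was described from 6 of the 12 left ventricle (LV) arrays of the study. These were the 3 arrays of vehicle-treated GRK-β1AR/miR150 double transgenic (DTG) mice and the 3 arrays of vehicle-treated GRK-β1AR transgenic (TG) mice, chosen by their labels alone. The background strain was C57BL/6J, and both groups carried a transgene, expressed in cardiomyocytes, for a β1-adrenergic receptor that lacks the sites phosphorylated by G protein-coupled receptor kinases. The DTG mice carried in addition a miR-150 transgene under the CAG promoter, which as background is active in most cell types. Where its product lay in these hearts was not measured here. Vehicle was given for 1 week to both groups. The DTG vehicle mice were all 10 weeks old, and the TG vehicle mice were 9, 9 and 12 weeks old. Each group held 1 mouse labelled female (replicate 1) and 2 labelled male. The ISO groups, DTG ISO aged 10 to 12 weeks and TG ISO aged 9 to 10 weeks, held 3 arrays each after 1 week of that β-agonist and are used for comparison only. Mice without the receptor transgene were not part of these groups, so every difference below is between mice that both carry the mutant receptor.

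MicroRNAs are short RNAs that guide Argonaute proteins to partly matching sites in other transcripts and lower the stability or translation of those transcripts. The bases that pair most tightly, the seed, lie near the 5′ end. MiR-150 is known for its abundance in mature lymphocytes, for its target Myb, and for a fall in several forms of heart injury. Its gene gives a mature strand from each arm of the hairpin. The miR-150-5p strand is named only. The other strand is shown because it belongs to the microRNA that sets the groups apart, with the seed (bases 2 to 8) in capitals. This seed is that of the miR-150-3p strand only, and no difference below is tied to it. It is taken from RefSeq (GRCm38.p6), where it lies on the plus strand at chr7:45121798-45121819 in Mir150.
mmu-miR-150-3p: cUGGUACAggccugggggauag

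The array carried 60915 probes against mRNAs and long noncoding RNAs. Most probes are named by a code and not by a gene, so they are described by class, that is by the prefix of the probe name. The prefixes were ASMM10P with 58141 probes, ASMM10UP with 923, humanlincRNA with 1104, mouselincRNA with 649, MM9LINCRNAEXON with 83 and housekeeping probes with 15. MiR-150 itself, its targets, and markers of cardiomyocytes, fibroblasts, endothelial cells and leukocytes were therefore not analysed here, and the labelled tissue was not checked against its markers. Levels are the background-subtracted signal on the log2 scale after the 75th percentile of that array was subtracted, so 0 is the 75th percentile and a difference of 1 is a 2-fold difference in signal. In tissue RNA, fewer cells of a type and less RNA per cell cannot be told apart.

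The 75th percentile signal was 301 to 439 on the 6 arrays. The share of probes flagged well above background ran from 53.2% on TG vehicle 1 to 71.9% on DTG vehicle 3. Several arrays stood apart. The array labelled TG vehicle 3 correlated on average 0.936 with TG vehicle 1 and 2 but 0.983 with TG ISO 1 and 2, across 44739 probes, which are not independent replicates. The array labelled TG ISO 3 did the reverse, at 0.981 with TG vehicle 1 and 2 and 0.948 with TG ISO 1 and 2. These values go against both labels, and whether the labels are exchanged was not tested. The labels were kept, so every mean of TG vehicle and of TG ISO below holds 1 array in doubt. DTG vehicle 3 correlated 0.969 with DTG vehicle 1 and 2 and 0.987 with the DTG ISO arrays. By the scan times in the file headers, arrays 1 and 2 of both vehicle groups were scanned together with TG ISO 1 and 2. DTG vehicle 3 was scanned with the DTG ISO arrays, and TG vehicle 3 with TG ISO 3. No DTG ISO array thus shared a scan, or the inferred slide, with a TG array. Results are therefore also given without TG vehicle 3, without both TG arrays numbered 3 where the ISO arrays enter, and for the 4 vehicle arrays of the shared scan.

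Of 45154 probes tested, 2 (0.00443%) passed an adjusted p of 0.05 (limma, Benjamini-Hochberg), and both were lower in DTG vehicle. Both belong to the ASMM10P class and lie in the second dimmest of 5 equal bins of signal.

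ASMM10P003139 read -5.12, -4.35 and -5.13 on DTG vehicle 1, 2 and 3. On TG vehicle 1, 2 and 3 it read -2.57, -2.40 and -2.22. Every DTG array lay below every TG array, with means of -4.87 ± 0.45 and -2.39 ± 0.18 (SD, n = 3 each). The log2 difference was -2.47 (SE 0.26, limma adjusted p = 0.0494).

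ASMM10P030138 read -4.59, -4.77 and -5.36 on the DTG vehicle arrays. On the TG vehicle arrays it read -2.45, -2.73 and -2.88. The groups did not overlap here either, with means of -4.91 ± 0.40 and -2.69 ± 0.22 (SD, n = 3 each). The log2 difference was -2.22 (SE 0.24, limma adjusted p = 0.0494).

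For both probes the DTG signal was close to background, well above it on 1 of 3 DTG vehicle arrays and on 3 of 3 TG vehicle arrays. The size of each difference depended on how background was removed. With normexp correction in place of the deposited background subtraction, the differences were -0.91 for ASMM10P003139 and -0.75 for ASMM10P030138, and neither passed the threshold. Without TG vehicle 3 the differences were -2.38 and -2.31, and within the shared scan -2.25 and -2.09. Both probes were lower in DTG under all 22 alternatives with an adjusted p. Only 2 of these alternatives kept ASMM10P003139 under the threshold and 1 kept ASMM10P030138 there.

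The calls were others when both TG arrays numbered 3, TG vehicle 3 and TG ISO 3, were left out of the fit of all groups. Then 8 probes (0.0177%) passed, 3 higher and 5 lower in DTG vehicle, and neither ASMM10P003139 (limma adjusted p = 0.0634) nor ASMM10P030138 (0.0609) was among them. This fit was added after the arrays were seen to stand apart, and leaving them out lowers the spread by construction. The probe with the lowest p of the 8, ASMM10P038756, read -1.32, -1.23 and -1.21 in DTG vehicle and 4.50, 4.74 and -0.98 in TG vehicle. In the ISO groups it read -1.30, -1.57 and -1.11 in DTG ISO and -1.02, -1.12 and 4.65 in TG ISO. It was thus bright on TG vehicle 1, TG vehicle 2 and TG ISO 3 and dim on the other 9 arrays. ASMM10P027526 had the opposite pattern, at 2.36, 2.20 and 1.30 in DTG vehicle against -2.49, -3.05 and 2.44 in TG vehicle, with 2.36, 2.19 and -2.50 in TG ISO. With all 12 arrays neither passed, at a limma adjusted p of 0.863 for both.

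The same genotypes given ISO used other arrays, whose spread entered the same fit. ASMM10P003139 read -4.53, -4.99 and -4.46 in DTG ISO and -2.97, -2.60 and -2.58 in TG ISO. ASMM10P030138 read -4.22, -3.70 and -3.83 in DTG ISO and -2.54, -2.29 and -2.50 in TG ISO. Over both treatments the highest of the 6 DTG arrays was thus below the lowest of the 6 TG arrays, with a gap of 1.38 for ASMM10P003139 and 0.82 for ASMM10P030138.

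Of 31066 tested probes well above background on all 6 vehicle arrays and without a missing value, 1194 (3.84%) were higher and 834 (2.68%) lower in DTG without overlap of the groups, against 5.23% and 2.49% of all probes tested, and none of these passed the adjusted threshold (limma). At an unadjusted p under 0.05, 480 of the higher and 207 of the lower ones remained. The 5 with the lowest p in each direction were all of the ASMM10P class. They were picked by that p, so their values are a description.

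On the higher side, ASMM10P027635 read 0.07, -0.62 and -0.15 in DTG vehicle and -2.63, -2.81 and -1.26 in TG vehicle. This was the largest difference of the 5, 3.99-fold, with the highest TG value on TG vehicle 3. ASMM10P007304 read -1.31, -1.88 and -1.07 in DTG vehicle and -2.39, -3.04 and -3.74 in TG vehicle, a 3.11-fold difference. ASMM10P046772 read -1.30, -0.84 and -0.38 against -1.96, -2.17 and -2.36, a 2.51-fold difference. The remaining pair differed by less. ASMM10P052096 read -1.78, -2.15 and -1.21 in DTG vehicle and -2.52, -2.93 and -3.01 in TG vehicle, a 2.16-fold difference. ASMM10P027549 read 0.86, 0.82 and 0.68 against -0.25, -0.01 and -0.05. Its 1.85-fold difference was small, but the arrays of each group lay within a narrow range.

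On the lower side, ASMM10P046428 read 1.18, 1.33 and 0.77 in DTG vehicle and 3.05, 3.18 and 1.97 in TG vehicle, a 3.12-fold difference. ASMM10P046460 read -3.54, -3.53 and -3.59 in DTG vehicle and -2.13, -1.63 and -2.48 in TG vehicle, a 2.78-fold difference with almost no spread among the DTG arrays. ASMM10P008295 read -0.39, -1.03 and -1.57 against 0.02, 0.26 and 0.31, a 2.28-fold difference. ASMM10P046428 was the one in which TG vehicle 3 lay closest to the DTG arrays. ASMM10P053874 read -3.35, -3.24 and -2.96 in DTG vehicle and -2.63, -2.25 and -1.93 in TG vehicle, a 1.88-fold difference. ASMM10P010968 read 3.81, 3.62 and 3.46 against 4.40, 4.28 and 4.84, a 1.84-fold difference in the brightest bin. All 10 kept their direction under each of 23 alternatives, normexp and the shared scan included. None of them reached an adjusted p of 0.05 under any of these, and the lowest was 0.122 for ASMM10P046460. In the fit without both TG arrays numbered 3, ASMM10P046428 (limma adjusted p = 0.0375) and ASMM10P046460 (0.0496) were among the 8 probes that passed.

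**Figure D1:**
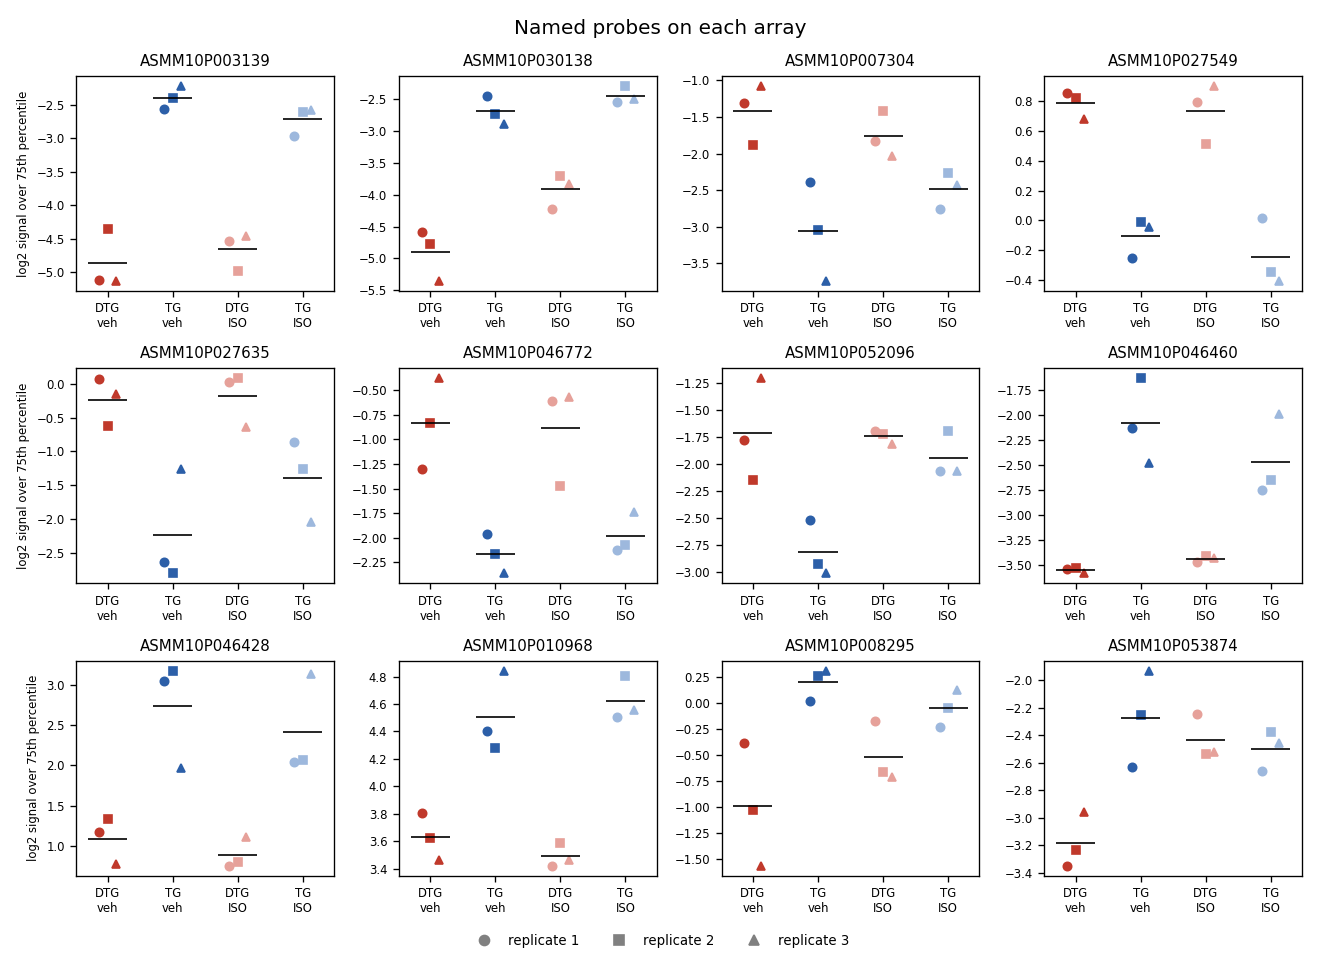
Log2 signal over the 75th percentile of the array (y axis, a separate scale in each panel) for the 2 probes that passed the adjusted threshold and the 10 named probes well above background on all 6 vehicle arrays. Points are arrays, marked by replicate number, in DTG vehicle (dark red), TG vehicle (dark blue), DTG ISO (light red) and TG ISO (light blue), and lines are group means. In 9 of the 12 panels all 6 DTG arrays lie on one side of all 6 TG arrays, and the vehicle part of this was set by the choice of probes.

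Over vehicle and ISO together, 9 of these 12 probes separated the 6 DTG from the 6 TG arrays. The exceptions were ASMM10P052096, ASMM10P008295 and ASMM10P053874. ASMM10P053874 had a difference of 0.064 under ISO, with levels of -2.25, -2.54 and -2.52 in DTG ISO and -2.66, -2.38 and -2.46 in TG ISO. Among the 44739 probes without a missing value, 626 (1.40%) were higher and 239 (0.534%) lower on all 6 DTG arrays than on all 6 TG arrays. Both directions were spread unevenly over signal level. The dimmest bin held 208 of the higher and 28 of the lower probes, while the brightest held 23 of the higher and 79 of the lower ones. Leaving out TG vehicle 3 gave 690 higher and 252 lower, and leaving out TG ISO 3 as well gave 1030 and 409, with fewer arrays to separate.

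Before adjustment, 2359 probes (5.22%) reached a p under 0.05. DTG vehicle was the higher group for 1846 of them (4.09%) and the lower group for 513 (1.14%). The groups did not overlap for 3467 of 44887 probes (7.72%), 2349 higher (5.23%) and 1118 lower (2.49%). The size of this surplus varied with the arrays used, and DTG vehicle was the higher group more often under each omission of 1 array. Without DTG vehicle 3 the counts at an unadjusted p under 0.05 were 887 higher and 557 lower. Without TG vehicle 3 they were 1075 and 372, without TG vehicle 2 they were 2453 and 1116, without TG vehicle 1 they were 2646 and 957, and without DTG vehicle 2 they were 2694 and 801. Within the shared scan they were 733 and 679. With normexp they were 668 higher and 772 lower, so that 46.4% were higher, against 78.3% with the deposited background subtraction.

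The surplus also followed signal level, which here is the brightness of a probe averaged over all 12 arrays and not the abundance of its transcript. The filter could pass a dim probe on DTG arrays alone, which favours higher probes among the dim ones. With no filter the median difference over all probes was -0.047, against 0.039 with it, and the part of the filter was not tested. From the dimmest to the brightest of the 5 bins, of 9030 or 9031 probes each, 722, 543, 289, 189 and 103 probes were higher at an unadjusted p under 0.05. The lower probes numbered 189, 109, 83, 81 and 51. Thus 7.99% of the dimmest bin and 1.14% of the brightest were higher. The dimmest bin held 378 higher and 307 lower without DTG vehicle 3, 429 and 419 within the shared scan, and 1 and 187 with normexp. With normexp the higher probes numbered 1, 21, 145, 285 and 216 from dim to bright, so this trend was not kept. The count in the brightest bin was not stable either. It was 24 higher and 31 lower without TG vehicle 3, 41 and 118 without DTG vehicle 1, 76 and 111 without TG vehicle 2, 53 and 37 without DTG vehicle 3, 256 and 79 without DTG vehicle 2 and 311 and 101 without TG vehicle 1, so its direction turned under 3 of the 6 omissions. Non-overlap gave another picture for the lower probes, whose count changed little with level, at 222, 201, 227, 230 and 238, while the higher ones fell from 716 in the dimmest bin to 119 in the brightest. In the brightest bin, lower probes without overlap thus outnumbered higher ones.

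The median difference over a bin was 0.16 in the dimmest, 0.10 in the second, 0.020 in the third, -0.014 in the fourth and 0.0012 in the brightest. The median size of a difference, whatever its sign, was 0.45 in the dimmest bin and 0.20 in the brightest. The arrays did not share the trend equally. In the dimmest bin DTG vehicle 3 lay 0.31 above the mean of the 12 arrays, while DTG vehicle 1 lay 0.22 below it and DTG vehicle 2 lay 0.06 below it, as medians over probes. TG vehicle 1, 2 and 3 lay 0.24, 0.12 and 0.14 below that mean. Only DTG vehicle 3 was raised, and DTG vehicle 1 lay within the range of the TG arrays. Spots of negative control probes followed a like order, with 5, 22 and 39 of 300 well above background on DTG vehicle 1, 2 and 3 and 6, 20 and 15 of 300 on TG vehicle 1, 2 and 3, and their part in the result was not tested. Without DTG vehicle 3 the median difference in the dimmest bin was 0.016, and with another array left out it was 0.15 to 0.27, highest without DTG vehicle 1. Within the shared scan it was 0.025, and with normexp it was -0.12. The spread among replicates was larger in TG vehicle than in DTG vehicle in every bin, with median SDs of 0.66 and 0.55 in the dimmest and 0.37 and 0.26 in the brightest.

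**Figure D2:**
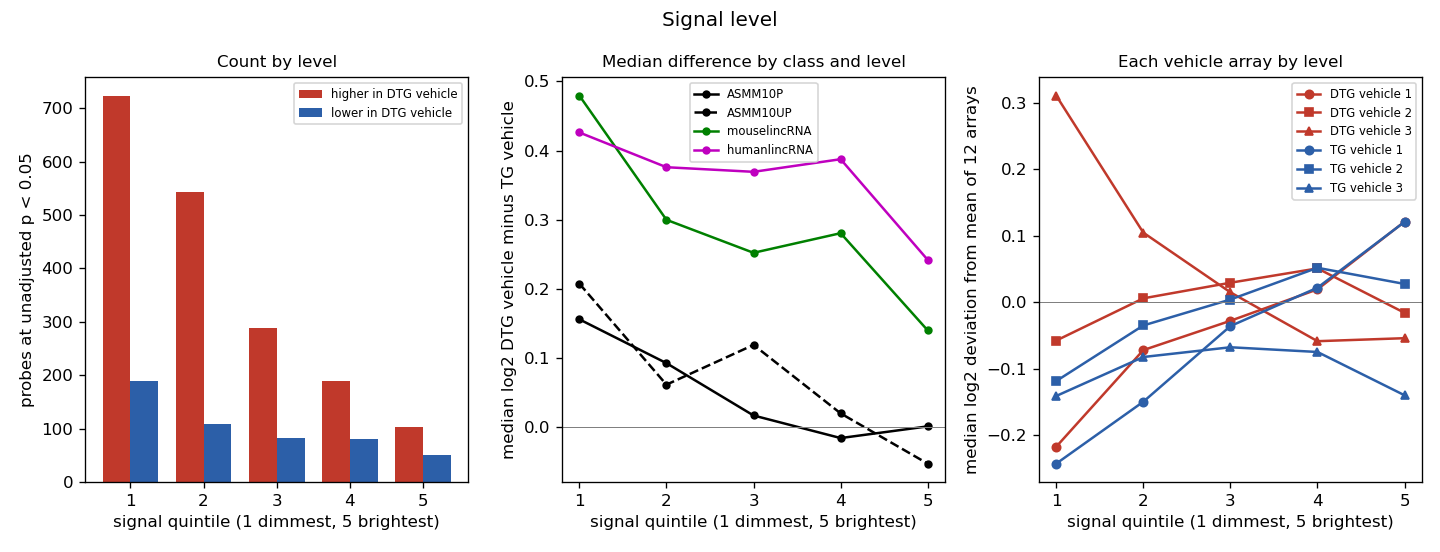
Signal level, with quintiles of mean signal over all 12 arrays on each x axis. Left, number of probes at an unadjusted p under 0.05 that were higher (red) or lower (blue) in DTG vehicle. Middle, median log2 difference of DTG vehicle minus TG vehicle for the 4 largest classes. Right, median log2 deviation of each vehicle array from the mean of the 12 arrays. With the deposited background subtraction the higher probes fall from 722 to 103 from dim to bright, and DTG vehicle 3 alone lies above 0 in the dimmest quintile.

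Probes for long intergenic noncoding RNAs (lincRNAs), which are transcripts from between protein-coding genes, formed 3 classes, which were counted separately. Of the 242 mouselincRNA probes tested, 37 (15.3%) were higher at an unadjusted p under 0.05 and none lower. Of 381 humanlincRNA probes, which by their name stand for human lincRNAs, 50 (13.1%) were higher and 2 lower. Of 48 MM9LINCRNAEXON probes, 5 (10.4%) were higher and none lower. These shares stand beside 4.09% higher and 1.14% lower over all probes, and no lincRNA probe passed the adjusted threshold of limma. The difference between classes was not tested. Only probes well above background on 3 or more of the 12 arrays were tested. The share of mouselincRNA probes detected was 49.8% on DTG ISO 3 and 36.8% on DTG vehicle 3. It was 17.3%, 28.0% and 24.8% on TG vehicle 1, 2 and 3. A dim probe could thus enter through DTG arrays alone, so the filter favours higher probes, and its part was not tested. The groups did not overlap for 28 mouselincRNA probes that were higher (11.6%) and 1 that was lower (0.415%), for 53 humanlincRNA probes that were higher (14.1%) and for 4 MM9LINCRNAEXON probes that were higher (8.33%). Over all probes these shares were 5.23% higher and 2.49% lower.

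The median difference was 0.39 for mouselincRNA, 0.39 for humanlincRNA and 0.18 for MM9LINCRNAEXON, against 0.035 for ASMM10P and 0.067 for ASMM10UP. The class medians were uneven over the arrays. The median humanlincRNA level was -3.80, -3.79 and -3.24 on DTG vehicle 1, 2 and 3, and -3.69, -3.90 and -4.28 on TG vehicle 1, 2 and 3. The median mouselincRNA level was -3.71, -3.90 and -3.09 on the DTG vehicle arrays and -3.70, -3.78 and -4.22 on the TG vehicle arrays. Replicates 1 and 2 of the groups overlapped, and the gap lay between DTG vehicle 3, the highest, and TG vehicle 3, the lowest. For MM9LINCRNAEXON the medians were -3.14, -3.19 and -2.64 in DTG vehicle and -3.19, -3.23 and -3.03 in TG vehicle, with TG vehicle 3 above DTG vehicle 1 and 2.

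A pair of Gapdh control probes, whose names end in 3 and 5, differed by 0.40 on the log2 scale on DTG vehicle 3 and by 0.87 to 1.30 on the other 5 vehicle arrays. The like pair for Pgk1 differed by 7.95 on DTG vehicle 3, within the 7.22 to 8.24 of the others. The part of this in the class difference was not tested. Within the shared scan the median difference was 0.061 for mouselincRNA and 0.073 for humanlincRNA, with 7 mouselincRNA probes higher and 7 lower and 20 humanlincRNA probes higher and 17 lower. Without DTG vehicle 3 the medians were 0.23 and 0.18, and without TG vehicle 3 they were 0.16 and 0.23. With normexp they were -0.023 and -0.016. For MM9LINCRNAEXON the median was 0.069 within the shared scan, 0.071 without DTG vehicle 3 and 0.22 without TG vehicle 3. It was -0.024 with a block for scan and -0.039 with normexp. This class held 0 higher and 1 lower probe within the shared scan. It held 2 higher and 0 lower without DTG vehicle 3, without TG vehicle 3 or with normexp. About 50.4% of the mouselincRNA probes tested and 49.6% of the humanlincRNA probes lay in the dimmest bin. The medians of both classes lay above that of ASMM10P in each of the 5 bins, the brighter of which held few lincRNA probes. In the dimmest bin the median was 0.48 for mouselincRNA and 0.43 for humanlincRNA against 0.16 for ASMM10P, and in the third, with 35 and 47 lincRNA probes, it was 0.25 and 0.37 against 0.017.

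Each lincRNA probe name carries a plus or a minus sign. At an unadjusted p under 0.05, 47 of 326 plus probes (14.4%) and 45 of 345 minus probes were higher. Both signs were tested for 70 humanlincRNA, 43 mouselincRNA and 7 MM9LINCRNAEXON names. In 3 of the 70 humanlincRNA pairs both probes were higher at an unadjusted p under 0.05. These were humanlincRNA0520, with log2 differences of 0.56 for plus and 0.76 for minus, humanlincRNA0691 and humanlincRNA2237. The probes of the last 2 were near background, and the plus probe of humanlincRNA0691 and the minus probe of humanlincRNA2237 were well above it on 1 of 3 DTG vehicle arrays and on 0 of 3 TG vehicle arrays, so no difference is given for them. These pairs were picked out with their values known. In no mouselincRNA pair did both probes reach an unadjusted p under 0.05.

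**Figure D3:**
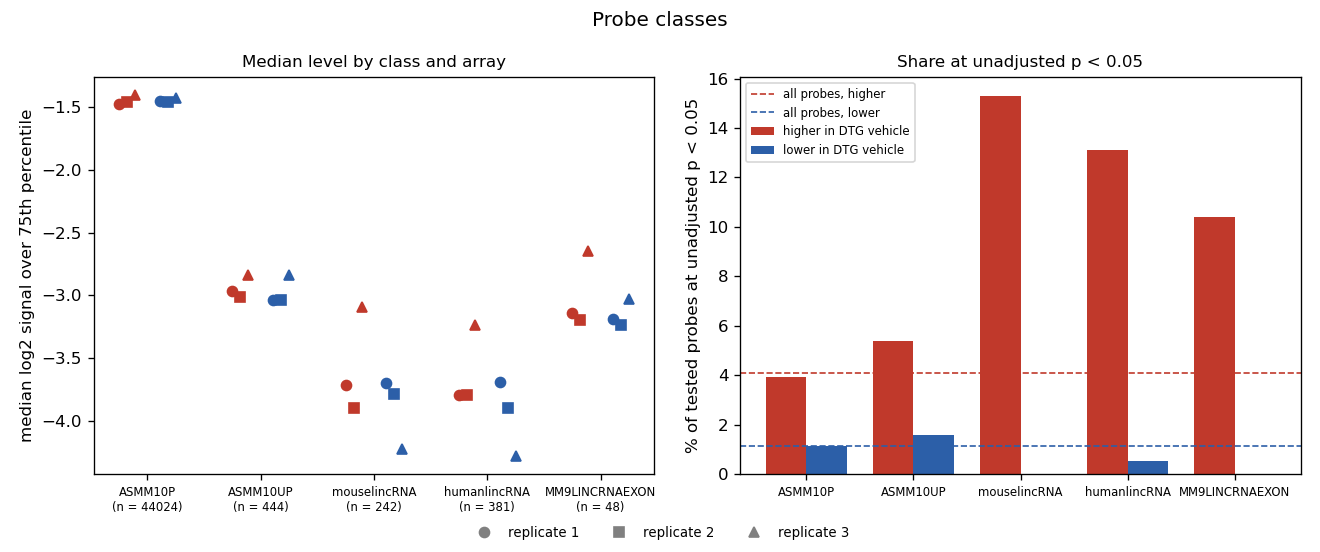
Left, median log2 signal over the 75th percentile of the tested probes of each class on each vehicle array (DTG red, TG blue, marked by replicate number). Right, percent of the tested probes of each class at an unadjusted p under 0.05, higher (red) or lower (blue) in DTG vehicle, with dashed lines for all probes at 4.09% and 1.14%. The lincRNA classes exceed the line for higher probes, and their replicate 3 arrays lie apart from replicates 1 and 2.

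For humanlincRNA and mouselincRNA, the 2 probes of each class with the lowest p are given, among those higher in DTG vehicle that were well above background on all 6 vehicle arrays and whose groups did not overlap. MM9LINCRNAEXON, the smallest lincRNA class, was left out of this choice. HumanlincRNA2274-_P1 read -0.41, -1.38 and -0.62 in DTG vehicle and -1.82, -2.35 and -3.07 in TG vehicle, a 3.06-fold difference. HumanlincRNA1773+_P1 read 1.90, 1.38 and 1.95 against 1.12, 0.76 and 0.24, a 2.05-fold difference. TG vehicle 3 was the lowest array for both. MouselincRNA1595-_P1 read -1.40, -2.67 and -1.34 in DTG vehicle and -2.73, -2.97 and -3.24 in TG vehicle, a 2.26-fold difference in which DTG vehicle 2 lay close to TG vehicle 1. MouselincRNA0130-_P1 read -1.59, -1.82 and -1.41 against -1.94, -2.22 and -3.95, a 2.15-fold difference with TG vehicle 3 far below the other TG arrays. Without that array its log2 difference was 0.48. No lincRNA probe met the same conditions on the lower side. The limma adjusted p was 0.863 for all 4 of these probes.

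In the ASMM10UP class, 24 of 444 probes were higher (5.41%) and 7 lower (1.58%) at an unadjusted p under 0.05, near the 4.09% and 1.14% of all probes. The probes named next were picked by their p and are a description. ASMM10UP720 read -2.40, -2.60 and -2.29 in DTG vehicle and -2.82, -3.11 and -3.14 in TG vehicle. ASMM10UP344 read -0.90, -1.27 and -1.08 against -1.46, -1.47 and -2.93, again with TG vehicle 3 lowest, and its log2 difference of 0.87 was 0.38 without that array. On the lower side, ASMM10UP200 read -1.91, -2.09 and -2.45 against -1.47, -1.29 and -0.88. ASMM10UP222 read -2.84, -3.16 and -3.18 in DTG vehicle and -1.73, -2.65 and -2.10 in TG vehicle. These 4 differences were 1.51-fold to 1.91-fold.

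Detection differed between the groups, and the difference depended on TG vehicle 1. All 3 DTG vehicle arrays were well above background for 36980 probes (60.7%) and all 3 TG vehicle arrays for 31448 (51.6%). TG vehicle 1 had the highest floor. With 1 array left out of each group, so that both needed 2 of 2 arrays, the TG share was 63.2% without TG vehicle 1 and 51.8% or 52.0% without TG vehicle 2 or 3, against 61.0% to 66.2% in DTG. The dimmest probe called well above background on TG vehicle 1 stood at -3.24, against -4.18 or lower on the other 5 vehicle arrays. By class, the share detected on TG vehicle 1 was 54.6% for ASMM10P, 26.8% for ASMM10UP, 17.3% for mouselincRNA and 14.6% for humanlincRNA. On DTG vehicle 3 the same shares were 73.3%, 45.3%, 36.8% and 33.6%.

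**Figure D4:**
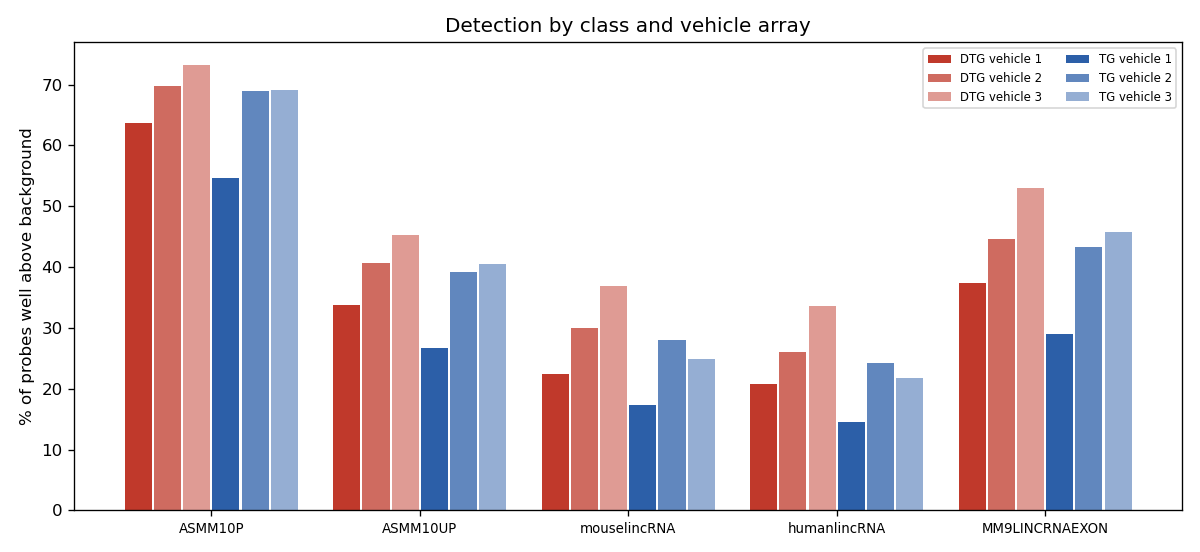
Percent of the probes of each class that were well above background on each vehicle array (DTG red, TG blue, lighter from replicate 1 to 3). In the 5 classes drawn, TG vehicle 1 is the lowest array and DTG vehicle 3 the highest, so humanlincRNA probes run from 14.6% to 33.6%.

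In all, 62 probes were well above background on 3 of 3 DTG vehicle arrays and on 0 of 3 TG vehicle arrays, and 4 the other way round. With 1 array left out of each group, the DTG-only probes outnumbered the TG-only probes in every choice that kept TG vehicle 1. Without TG vehicle 1 the numbers were 563 and 126 when DTG vehicle 1 was also left out, 138 and 320 with DTG vehicle 2 left out, and 92 and 396 with DTG vehicle 3 left out. For such probes only a bound on the fold can be given, from the bright group's mean against the detection floor, or the probe's own signal where that was higher, of the dim group's arrays. ASMM10P038510, with the largest bound of the DTG-only probes, was at least 3.53-fold higher, from -0.46, -3.79 and -3.21 in DTG vehicle. Its DTG arrays spanned a wide range, the groups overlapped, and the bound was 1.75-fold without DTG vehicle 1. ASMM10P048625 was at least 3.23-fold and ASMM10P031195 at least 2.85-fold higher in DTG vehicle. For ASMM10P048625 the groups overlapped, with DTG vehicle 2 at -3.84 and TG vehicle 1 at -3.49, and its bound ran from 2.10-fold to 4.93-fold with 1 array left out. ASMM10P031195 was the steadiest of these, at -2.37, -3.29 and -2.73 against -5.45, -5.23 and -7.12. On the other side, ASMM10P028804 was at least 2.93-fold, ASMM10P006115 at least 2.21-fold and ASMM10P025010 at least 1.92-fold lower in DTG vehicle, each with TG vehicle 1 as its brightest array. Without that array their bounds were 1.90-fold, 1.25-fold and 1.41-fold. Of the 62 probes, 15 were likewise well above background on all 3 DTG ISO arrays and on 0 TG ISO arrays, ASMM10P031195 among them, and 1718 of the 9031 probes of the dimmest bin had this pattern. The mean was higher in DTG ISO for 52 of the 62, of which 60 lay in the dimmest bin, where 69.2% of all probes were higher in DTG ISO. None of the 4 was detected in TG ISO alone, and 1 showed the opposite pattern.

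The 15 housekeeping genes, each read from 20 spots, were named through an accession in the deposited files. None passed the adjusted threshold, none had an unadjusted p under 0.05, and in none did the groups separate. Of the 15 differences, 8 were within 0.2 of 0 on the log2 scale. No gene had an unadjusted p under 0.05 when 1 choice was changed or 1 array left out. Without TG vehicle 3 the sign turned for 4 of the 15 (Tuba1b, Ppia, Gapdh and G6pd2), and over all these alternatives it turned at least once for 8.

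In the cytoskeleton, the difference was 0.19 for Actb (cytoplasmic β-actin), with a 95% interval of -0.34 to 0.73, and -0.12 for Tuba1b (α-tubulin), with -0.57 to 0.33. Without TG vehicle 3 they were 0.029 and 0.013. In protein synthesis and folding, Rpl13a, a protein of the large ribosomal subunit, read 3.53, 3.42 and 3.28 in DTG vehicle and 3.53, 3.39 and 4.41 in TG vehicle. TG vehicle 3 alone was high, and the difference of -0.37 was -0.05 without it. Ppia (cyclophilin A, a prolyl isomerase) differed by -0.18 and Hsp90ab1 (the constitutive HSP90 chaperone) by -0.21, which were 0.044 and -0.39 without that array.

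In glucose and glycerol metabolism, Gapdh, the glycolytic dehydrogenase, differed by 0.03 (95% interval -0.52 to 0.57), and by -0.14 without TG vehicle 3. Gk (glycerol kinase) read -2.47, -2.77 and -2.16 in DTG vehicle and -2.68, -2.71 and -3.31 in TG vehicle, a difference of 0.43 that was 0.22 without TG vehicle 3. G6pd2 and Ldhal6b belong to families with near-identical members, whose transcripts may bind the same probe, and differed by -0.10 and 0.29. Ldhal6b was near background, well above it on 2 of 3 arrays in each group.

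Among genes of transcription and RNA binding, Tbp (the TATA-box binding protein) differed by 0.10 and Nono (a nuclear RNA-binding protein) by -0.02. Hprt, the purine salvage enzyme, was the steadiest, at 5.94, 5.70 and 5.80 in DTG vehicle and 5.83, 5.65 and 5.72 in TG vehicle. Its 6 arrays spanned 0.29 and its difference of 0.08 had a 95% interval of -0.28 to 0.44. B2m, the light chain of class I major histocompatibility complexes, read 6.89, 6.62 and 7.08 in DTG vehicle and 7.18, 6.93 and 7.55 in TG vehicle, a difference of -0.35 that was -0.19 without TG vehicle 3.

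Gusb, the lysosomal β-glucuronidase, and Tfrc, the transferrin receptor that brings iron into the cell, had the largest differences. Gusb read 2.52, 2.78 and 2.60 in DTG vehicle and 2.65, 2.89 and 4.19 in TG vehicle. Tfrc read 6.46, 5.59 and 6.21 against 5.86, 6.12 and 4.43. TG vehicle 3 was the highest array for Gusb and the lowest for Tfrc. The differences were -0.61 (95% interval -1.67 to 0.46) and 0.62 (-0.33 to 1.56), and they were -0.13 and 0.09 without that array. The values of TG vehicle 3 were near those of TG ISO 1 and 2, which were 4.02 and 4.57 for Gusb and 4.82 and 5.28 for Tfrc.

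**Figure D5:**
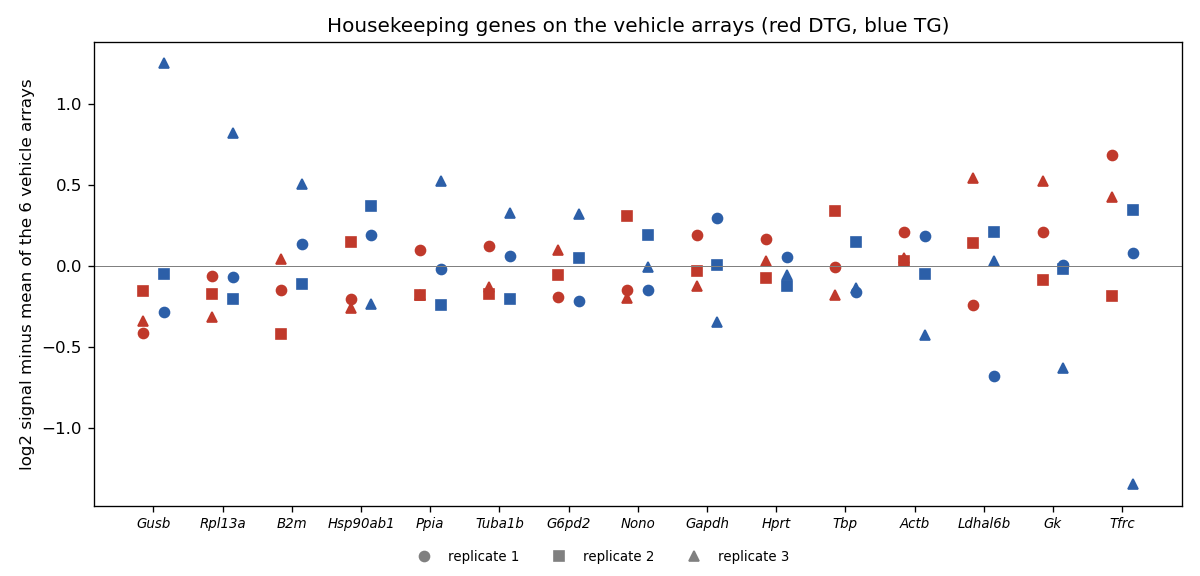
Log2 signal of each housekeeping gene on each vehicle array minus the mean of the 6 vehicle arrays (DTG red, TG blue, marked by replicate number), ordered by the difference of DTG vehicle minus TG vehicle. The arrays of the groups overlap for all 15 genes, and TG vehicle 3 is the farthest point for Gusb and Tfrc.

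The direction of the vehicle difference was then read on the 6 arrays labelled ISO. The values of TG vehicle 3 and TG ISO 3 go against their labels, so the arms may not be separate as labelled, and the shares are also given without these arrays. Of the 1846 probes that were higher in DTG vehicle at an unadjusted p under 0.05, 91.1% were also higher in DTG ISO than in TG ISO, against 57.3% of all probes. Of the 513 lower ones, 83.2% were lower in DTG ISO, against 42.7% of all probes. The groups did not overlap under ISO for 62.1% of the higher set (23.7% of all probes) and for 38.4% of the lower set (14.1% of all probes). In the brightest bin, 98.0% of the 51 lower probes were lower and 75.7% of the 103 higher probes were higher under ISO, against 52.3% and 47.7% of all probes of that bin. These shares depended on TG vehicle 3. When the sets were chosen without it, 77.7% of 1075 higher probes and 51.9% of 372 lower probes kept their direction under ISO. With TG ISO 3 left out as well, 65.3% of 1549 higher and 49.1% of 585 lower probes kept it, against 57.4% and 42.6% of all probes. The share without overlap was then 49.3% of the higher set (38.6% of all probes) and 34.0% of the lower set (27.0% of all probes). In the brightest bin it was 67.9% of 28 higher and 52.7% of 55 lower probes that kept their direction, against 51.8% and 48.2% of all probes of that bin. The DTG ISO arrays were scanned with DTG vehicle 3 and apart from every TG array, and TG vehicle 3 was scanned with TG ISO 3. Genotype under ISO, and so this agreement, cannot be told apart from scan or from the inferred slide.

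The difference between DTG and TG was also compared directly between ISO and vehicle. The ISO side of this comparison likewise cannot be told apart from scan. No probe of 45152 passed the adjusted threshold for this interaction, with a lowest limma adjusted p of 0.927, and 1971 (4.37%) had an unadjusted p under 0.05. The groups were apart without overlap in the same direction in both arms for 1497 probes, and in opposite directions for 51. The count of this interaction rested on the third TG arrays. It was 0 without TG vehicle 3 and 1 without TG ISO 3, but 4034 of 45144 probes (8.94%) passed without both, 1528 with a higher and 2506 with a lower difference under ISO than under vehicle. An unadjusted p under 0.05 was then reached by 12480 probes (27.6%). By class, 3957 of the 4034 were ASMM10P, 40 ASMM10UP, 12 mouselincRNA and 22 humanlincRNA probes, and 3 were the housekeeping genes Gusb, Rpl13a and Ppia. With the labels as given and all 12 arrays, a difference in the miR-150 effect between vehicle and ISO was therefore not detectable, and this does not show that the effects were alike.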

How the data were processed

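Each of the 12 arrays was hybridised with Cy3-labelled RNA of 1 left ventricle. Per the labels, ribosomal RNA was removed and the RNA was amplified with random primers. The authors deposited the intensity of each spot from Feature Extraction 11.0.1.1, after background subtraction, with raw medians and flags (grid build mm9 per the file headers). The authors also deposited a table of normalized log2 values, used as an alternative, since its normalization is not given in the sources used here. Columns of samples left unused numbered 0.

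The processed intensity was put on the log2 scale, the 75th percentile of non-control spots was subtracted, spots marked as outliers (908 in the series) were dropped and repeat spots were averaged by probe. The filter kept probes well above background on 3 or more of the 12 arrays. They were tested with limma 3.58.1 in R 4.3.3 (4 group means, 8 residual degrees of freedom before moderation, two-sided, Benjamini-Hochberg over 45154 probes, threshold 0.05). Nothing says more of the replicates than that they are separate mice, and 3 against 3 arrays limit the precision. An exact permutation test of 3 against 3 cannot give a p below 0.1. Simulated data were used to test the fit. Plots were drawn with matplotlib 3.10.9.

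Class was to be the probe name without its trailing digits. This would have given each lincRNA probe a class of its own, so the alphabetic prefix was used. Level bins are 5 equal groups by mean over 12 arrays. Scan was read from the scan times in the headers, and slide was inferred, because no slide is named, by placing scans together where no array position repeats. Negative control probes were left out. Housekeeping probes were named through the RefSeq accession in the files (15 of 15 matched, GRCm38.p6). Intervals of differences use the moderated SE and degrees of freedom of limma. The probes named were those called, the 5 with the lowest p per direction among probes well above background on all 6 arrays without overlap, the 2 lowest of these per direction in each class with 50 or more probes tested, the 3 largest bounds per direction, and all housekeeping genes. Members, lists and rules were chosen with earlier results of these data known. Replicate numbers were checked for pairing: the deviations of same-numbered arrays correlated 0.08, 0.18 and -0.03, so no pairing was used. Alternatives covered scaling, background correction (normexp, offset 50), the authors' values, filters, the arrays fitted, blocks for replicate number, scan and slide, labelled sex and age, variance models, the t-test of the study's methods, and 1 array left out at a time.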

Additional observations from a re-analysis of the deposited data

How the results depend on the processing

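The count of probes called, 2, changed under nearly every alternative. It stayed at 2 only with centring on the median of the probes well above background on all 12 arrays. It was 0 with quantile normalization, normexp, the authors' values, no filter, a filter on all 12 arrays, the 6 vehicle arrays alone, the replicate block on the 6 or on all 12 arrays, the scan block, the slide block, the shared scan alone, labelled sex or age in the model, a robust prior with an intensity trend, array weights, and the methods' t-test after adjustment. Without both TG arrays numbered 3 (TG vehicle 3 and TG ISO 3) it was 8, and the interaction of genotype and treatment, 0 with all arrays, called 4034 probes, so both counts depend on arrays whose values go against their labels. The methods' t-test called 1068 probes before adjustment (787 higher, 281 lower). Leaving out 1 vehicle array gave 0 to 1 calls, and the call that remained without DTG vehicle 2 was ASMM10P003139. At an unadjusted p under 0.05, the replicate block on the 6 vehicle arrays gave 948 higher and 452 lower probes, the scan block 568 and 453, no filter 1670 and 935, and the filter on all 12 arrays 869 and 353. The replicate block did not change the side of the threshold of any housekeeping gene.

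Normexp moved the median difference of ASMM10P to -0.057, ASMM10UP to -0.072, mouselincRNA to -0.023, humanlincRNA to -0.016, and the 3 dimmest bins to -0.12, -0.074 and -0.035. Within the shared scan it was -0.00099 for ASMM10P and 0.073 for humanlincRNA. Without 1 array each, the medians ranged from 0.0074 to 0.070 for ASMM10P and 0.056 to 0.12 for ASMM10UP. They ranged from 0.16 to 0.48 for mouselincRNA, 0.18 to 0.54 for humanlincRNA and 0.071 to 0.30 for MM9LINCRNAEXON. By level they ranged from 0.016 to 0.27 for the dimmest bin, 0.054 to 0.14 for the second and 0.0075 to 0.054 for the third. For the fourth bin they ranged from -0.038 to 0.034 and for the brightest from -0.067 to 0.054. Probes detected only in DTG vehicle numbered 151 by the 99th percentile of the negative controls, and 65 to 645 without 1 array. Those detected only in TG vehicle numbered 4 to 120 without 1 array. The loss of an array loosens the criterion in both directions. Without TG vehicle 2 there were 645 DTG-only and 42 TG-only probes. The cause of these changes was not tested. Differences in dim probes rest on signal close to background, and 3 arrays per group limit them further. The alternatives for unadjusted counts, named probes, the ISO arrays, both TG arrays numbered 3 and 1 array out of each group were chosen after seeing the data.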
